A study of Mus musculus with 6 samples.

Results

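The genes described here are the keratins and the genes of epithelial cell junctions: claudins, desmosomal cadherins and plaque proteins, plakophilins, the tight junction scaffolds, Epcam, Cdh1 and the regulators Grhl and Esrp. They were chosen by symbol from the probe annotation, among transcript probes with a single gene symbol. The choice gave 99 probes for 88 genes, of 34967 transcript probes and 18069 named genes on the array. Of these, 41 probes for 39 genes were keratins, and 58 probes for 49 genes were junction genes and regulators. Krt18 and Krt15 are measured by probes that also carry the symbol of an unrelated gene, so they were left out, and Dsg4 and Esrp2 were not analysed here.

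RNA was measured in early-passage mouse embryonic fibroblasts, primary cells grown from dissociated embryos. The deficient group was 3 cultures in which a gene-trap cassette inactivated the Ing1 locus, named C4, C3 and B1 in the labels, and the wild-type group was 3 cultures of littermates, named H2, H3 and I2. Each culture came from its own embryo and went on its own 1-colour CodeLink array, and the labels name no Cre line or treatment for either group. Ing1 encodes a reader of histone methylation that works with a histone deacetylase complex, and the study asked which genes respond to its loss. The labels do not say which cultures share a litter or what the letter means, and no letter holds both genotypes, so letter and genotype cannot be told apart.

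Keratins are the intermediate filament proteins of epithelia and are built as pairs of a type I and a type II chain. Simple epithelia, stratified epithelia and hair follicles each use their own pairs. Desmosomes anchor these filaments at the membrane through desmosomal cadherins, plakoglobin, plakophilins and desmoplakin, while claudins and occludin seal tight junctions and bind scaffolds such as ZO-1. Fibroblasts are mesenchymal cells whose main filament protein is vimentin, and repressors of the Snail and Zeb families are known to hold epithelial junction genes down in such cells.

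A probe is called read where the scanner software gave it a good flag, meaning a signal above the local noise, on all 3 arrays of at least 1 genotype. A spot that the software flagged low is called at or below background, though its value may exceed most negative control spots. Levels are normalized intensities, on a linear scale on which the median transcript probe of each array is 1. Differences are log2 deficient minus wild type with the standard error of the fit, and a probe is said to rise or fall where its limma p, adjusted over all 19575 probes read, was under 0.05.

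In these fibroblasts most probes for desmosomal cadherins, keratins of stratified epithelium and epithelial regulators were not read in either genotype, while all 4 simple epithelial keratin probes and 12 of 22 claudin probes were. Desmoplakin (Dsp) and Cldn10 fell in the deficient cells by 1 probe each, no member rose, and no keratin passed the test. The upstream sequences of these 2 genes are shown here because they carry the only differences that passed the test. They are the 250 bases before each annotated start on the plus strand of GRCm38.p6, from RefSeq, with every CG dinucleotide in capitals. Dsp lies on chromosome 13 (chr13:38151044-38151293). Cldn10 lies on chromosome 14 and has alternative first exons, so both of its starts are given (chr14:118787621-118787870 and chr14:118854700-118854949).
Dsp: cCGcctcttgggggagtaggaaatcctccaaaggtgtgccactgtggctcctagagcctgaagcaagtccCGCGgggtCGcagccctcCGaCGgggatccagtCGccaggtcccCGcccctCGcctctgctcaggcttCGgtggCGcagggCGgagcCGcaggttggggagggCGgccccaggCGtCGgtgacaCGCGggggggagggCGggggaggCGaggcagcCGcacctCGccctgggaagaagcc
Cldn10, upstream start: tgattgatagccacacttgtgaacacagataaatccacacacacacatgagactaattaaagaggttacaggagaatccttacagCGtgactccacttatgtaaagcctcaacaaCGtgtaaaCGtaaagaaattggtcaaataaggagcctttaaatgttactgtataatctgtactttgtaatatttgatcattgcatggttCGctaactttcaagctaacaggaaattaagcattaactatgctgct
Cldn10, downstream start: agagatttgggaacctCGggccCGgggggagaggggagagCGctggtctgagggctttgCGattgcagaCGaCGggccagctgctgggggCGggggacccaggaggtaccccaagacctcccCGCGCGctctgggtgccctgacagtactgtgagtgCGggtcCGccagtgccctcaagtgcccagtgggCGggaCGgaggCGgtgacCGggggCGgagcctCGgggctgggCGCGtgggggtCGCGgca

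The Dsp promoter held 22 CG dinucleotides at a G+C content of 72.4%, more than 85.2% of the 32851 RefSeq promoters of this length. The downstream Cldn10 promoter held the same number at the same G+C content, while the upstream one held 4 at 36.0%, more than 37.8% of promoters. Neither CACCTG, an E-box that Snail and Zeb factors bind, nor AACCGGTT, a site of the Grainyhead factors, was found on either strand of the 3 windows. Promoter entries were found for 55 of the 88 member genes, and Cdh1 and Pkp1 were among those without one. CACCTG was present in 17.2% of all promoters and in 20 of the 68 promoters of these 55 genes (29.4%). AACCGGTT was present in 0.116% of all and in none of the members'. CACCTG was in 32.35% of promoters of members read and 26.47% of those not read, against 15.94% and 19.33% over all genes with 1-symbol probes. These matches are letters in a window and not sites of binding.

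Counted over members, promoters of genes that were read held a median of 7 CG (34 promoters of 29 genes), against 4.5 for genes not read (34 promoters of 26 genes). Among junction genes the medians were 9 CG in the 21 promoters of genes read and 6 in the 19 of genes not read. Among keratins they were 3 for genes read and 4 for genes not read. Over all genes with 1-symbol probes the medians were 14 for those read and 5 for those not read.

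The cells carried the marks of mesenchyme. All 14 mesenchymal genes looked up were read, with Vim (vimentin) at 267, 221 and 209 in deficient arrays and at 330, 205 and 273 in wild-type arrays. All 8 repressors of the epithelial state were read, among them Zeb1 and Snai2. Of 32 further epithelial genes on the array 15 were read, and Trp63, Ovol1, Ovol2, Elf3 and Ehf were not. Of 10 endothelial genes 5 were read, Kdr, Tek, Esam, Egfl7 and Ramp2, while the defining markers Pecam1 and Cdh5 had a good flag on no array. Ing1 itself gave 1.38, 0.930 and 1.39 on the deficient arrays C4, C3 and B1, against 11.7, 11.4 and 11.1 on H2, H3 and I2 of wild type. Good flags covered 55.5% to 62.1% of transcript probes per array, and after subtraction of local backgrounds of 31 to 33 intensity units the median signal was 18.8 to 25.4 units.

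Of the 99 member probes 44 were read, for 42 genes (44.4%), against 56% of all transcript probes and 62.5% of those with 1 symbol. A good flag was present on all 6 arrays for 33 members and on none for 45 (45.5%, against 29.7% of all transcript probes), with the single Dsc3 probe masked on every array. The 44 measured members that were never flagged good had values from -0.0828 to 0.598 with a median of 0.171, and negative control spots had a 95th percentile of 0.300 to 0.397. The number of members with a good flag was 41, 45 and 43 on C4, C3 and B1, against 47, 45 and 49 on H2, H3 and I2. A deficient array, C3, and a wild-type array, H3, thus had the same number.

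**Figure D1:**
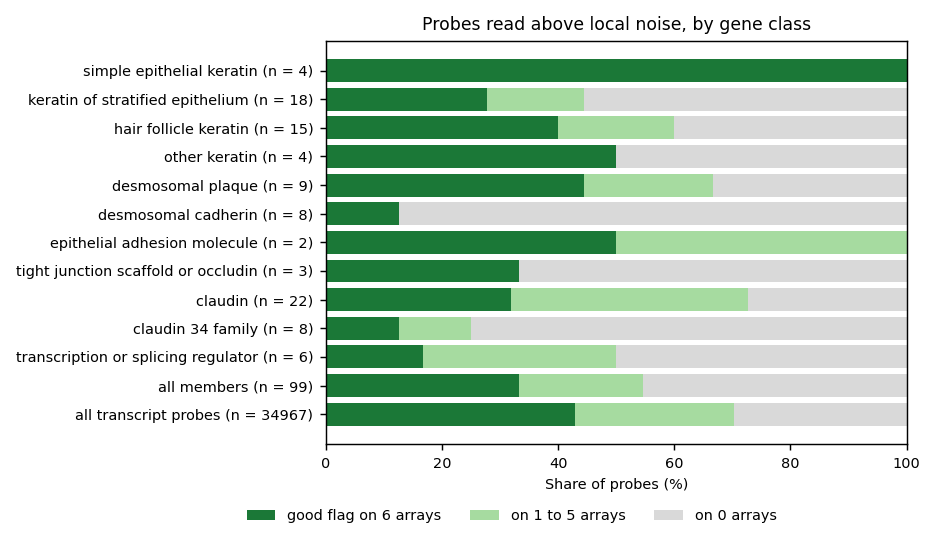
Share of member probes in each gene class (horizontal axis, percent of the probes in the class) with a good flag on all 6 arrays, on 1 to 5 arrays and on no array. All 4 simple epithelial keratin probes were flagged good on 6 arrays, while 7 of 8 desmosomal cadherin probes were flagged good on none.

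Of the keratin probes 20 of 41 were read (48.8%), and of the junction and regulator probes 24 of 58 (41.4%). All 4 simple epithelial keratins were read, against 6 of 18 probes for keratins of stratified epithelium and 8 of 15 for hair follicle keratins. By keratin gene cluster, 9 of 20 probes were read on chromosome 11 and 11 of 21 on chromosome 15. Of the epidermal pairs, Krt1, Krt10 and Krt2 had no good flag on any array, and the basal keratins had a good flag on a few, Krt5 on B1 and I2 and Krt14 on I2. Krt5 lay between 0.350 and 0.675 on deficient arrays and between 0.295 and 0.658 on wild-type arrays.

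Within the junction genes, 12 of 22 claudin probes were read, and 2 of 8 probes for the mouse Cldn34 genes, a family of claudin-like genes. Of 9 desmosomal plaque probes 5 were read, for Dsp, Jup, Pkp1, Pkp2 and Pkp4. Of 8 desmosomal cadherin probes 1 was read, for Dsg1b, while both Dsc1 probes and those of Dsc2, Dsg1a, Dsg2 and Dsg3 had a good flag on no array. Ppl and Evpl, the plakins of the cornified envelope, were likewise unread. Pkp3 had a good flag on C3 alone.

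Among the other junction genes, Tjp1 was read, and Tjp3 and occludin (Ocln) had a good flag on no array. Cdh1, which encodes E-cadherin, the adhesion molecule that defines epithelia, gave 0.324, 0.260 and 0.263 on the deficient arrays and 0.369, 0.528 and 0.543 on the wild-type arrays, and only I2 carried a good flag. Every deficient value lay below every wild-type value, but 5 of the 6 were at background and Cdh1 was not tested. Of the other members not read, Krt25 was likewise lower on every deficient array, and Ocln, Pkp3 and Krt6b were higher on every deficient array. Such separations were not counted over all probes not read, so no result about the members is drawn from them. Ocln gave 0.598, 0.514 and 0.393 on the deficient arrays, against 0.293, 0.095 and 0.228 on the wild-type arrays, none with a good flag. The deficient values exceeded the 95th percentile of negative controls on their own arrays (0.3969, 0.3349 and 0.3275). The wild-type values lay below theirs (0.3766, 0.3001 and 0.3128), and Ocln was not tested. Epcam, an adhesion molecule of simple epithelia, gave 1.38, 1.61 and 1.03 in deficient cells and 1.50, 1.05 and 1.25 in wild type, so the groups overlapped (log2 0.07 ± 0.21, adjusted p = 0.862). Of the regulators, 1 of 2 Grhl2 probes and Grhl3 were read, while Esrp1, an epithelial splicing factor, had a good flag on no array and Grhl1 had one on C3 only.

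Of the 44 members read, 2 passed the test and both were lower in deficient cells, against 6.57% of all probes read that passed, 4.94% higher and 1.63% lower. Leaving out C4, B1, H2 or I2 left 0 members past the threshold, and leaving out H3 gave 5. At an unadjusted p under 0.05 there were 7 members, 6 lower and 1 higher, against 26.2% of all. The groups did not overlap for 11 members, against 31.4% of all. For 10 of these (22.7%) every deficient array lay below every wild-type array, against 11.3% of all probes read, and for 1 (2.27%), Tjp1, every deficient array lay above, against 20.1%. Over the probes read with 1 symbol, from which the members were drawn, these shares were 10.3% below and 23.3% above. The filter bears on such counts, since 9 members were read through the wild-type arrays only and 2 through the deficient arrays only. Among the 33 members flagged good on all 6 arrays the numbers were 8 below (24.2%) and 1 above (3.03%), against 9.93% and 20.5% of all such probes. The 2 members that passed were both among these 33, against 5.78% of all such probes. In such bulk RNA, fewer cells that carry a transcript and less of it in each cell cannot be told apart.

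**Figure D2:**
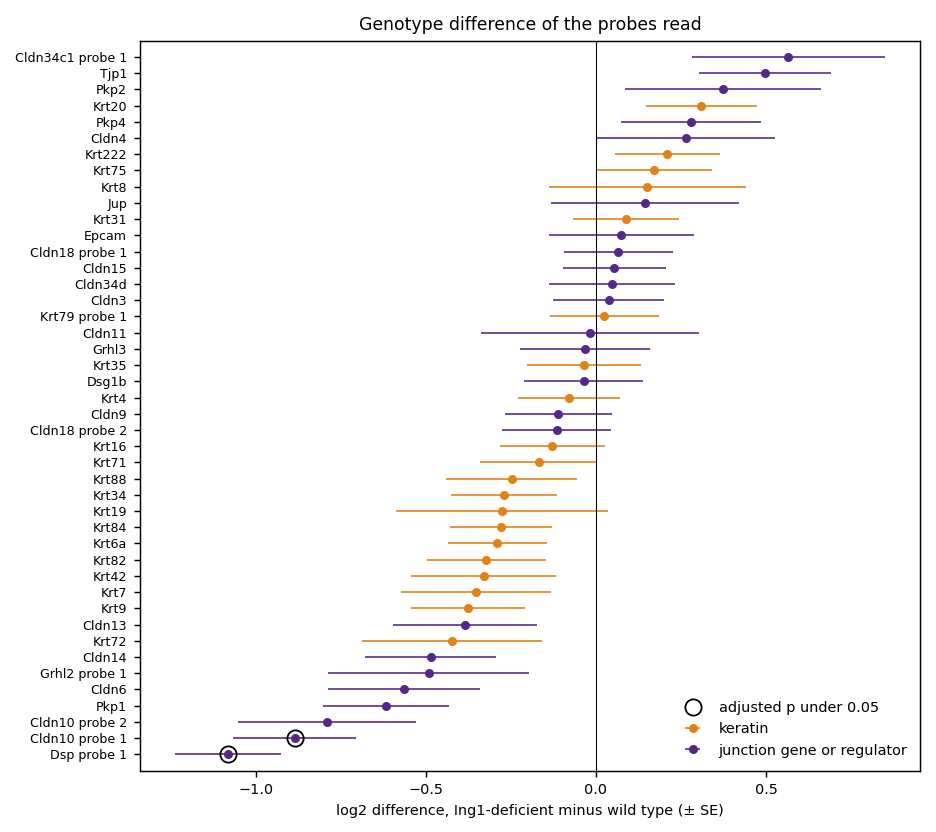
Log2 difference, Ing1-deficient minus wild type, with its standard error (horizontal axis) for each of the 44 member probes read, ordered by size, keratins in orange and junction genes and regulators in purple. The 2 circled probes, Dsp at -1.08 and Cldn10 at -0.88, had an adjusted p under 0.05. The fitted differences of all keratins lay between -0.42 and 0.31. Those of Krt82 (-0.32), Krt42 (-0.33) and Krt72 (-0.42) were held up by the floor under low deficient values.

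Dsp encodes desmoplakin, the plakin that ties keratin filaments to the desmosomal plaque. Its first probe gave 1.44, 1.61 and 1.53 on C4, C3 and B1, against 2.97, 3.06 and 3.69 on H2, H3 and I2. The 3 deficient arrays lay close together and every wild-type array was well above them. The means were 1.53 ± 0.0874 in deficient cells and 3.24 ± 0.391 in wild type (SD, n = 3 each), wild type being 2.11-fold higher (log2 -1.08 ± 0.16, adjusted p = 0.0177). The other Dsp probe was at background on all 6 arrays, with values from -0.0299 to 0.247, and so neither repeats the difference nor goes against it. The adjusted p was 0.0689, 0.0907, 0.0650 and 0.0982 without C4, B1, H2 or I2, and 0.0605 with Eif2s3y, a gene of the Y chromosome, as covariate. It was 0.0372 and 0.00788 without C3 or H3, 0.0926 with no filter on flags and 0.103 by the methods' t-test. Normexp background correction gave a difference of -0.54 (adjusted p = 0.0396), but its added offset of 50 units shrinks log2 differences, most for dim probes.

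Other plaque proteins did not pass. Pkp1, a plakophilin of stratified epithelia, gave 2.20, 2.37 and 2.57 in deficient cells and 4.32, 2.88 and 3.88 in wild type. All deficient arrays lay below all wild-type arrays, with H3 the nearest to them (log2 -0.62 ± 0.19, adjusted p = 0.0778). Pkp2, the plakophilin of simple epithelia and heart, gave 3.92, 5.78 and 8.01 in deficient cells, against 4.45, 3.27 and 5.75 in wild type. The groups overlapped, with the deficient array B1 the highest and the wild-type array H3 the lowest (0.37 ± 0.29, adjusted p = 0.448). Pkp4, an armadillo-repeat protein of cell contacts, gave 26.0, 15.1 and 18.2 in deficient cells and 15.9, 15.6 and 16.1 in wild type, so that C4 stood above 5 closer values (0.28 ± 0.21, adjusted p = 0.428).

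Jup, which encodes plakoglobin, a plaque protein shared by desmosomes and adherens junctions, gave 0.528, 1.26 and 0.956 in deficient cells and 0.671, 0.828 and 0.915 in wild type. Both the lowest and the highest value were deficient (0.14 ± 0.28, adjusted p = 0.783). Dsg1b, a mouse copy of the desmosomal cadherin desmoglein 1, gave 6.76, 9.54 and 8.51 in deficient cells, against 8.76, 8.75 and 7.71 in wild type, with overlapping groups (-0.04 ± 0.17, adjusted p = 0.924). The mouse desmoglein 1 genes are near-identical copies, and the Dsg1a probe was at background, so which copy the Dsg1b probe reads is uncertain.

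**Figure D3:**
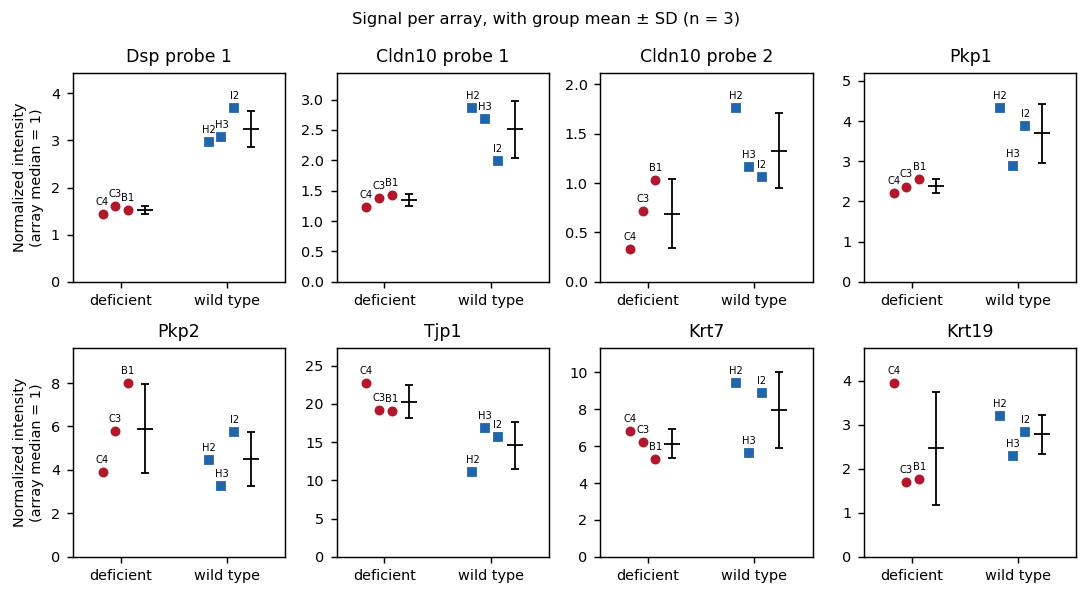
Normalized intensity (vertical axis, array median = 1, linear and starting at 0) of 8 member probes on each array, deficient in red and wild type in blue, with the group mean and SD (n = 3) beside the points. Dsp probe 1, Cldn10 and Pkp1 had every deficient array below every wild-type array, Tjp1 had every deficient array above, and Pkp2, Krt7 and Krt19 overlapped.

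Cldn10 encodes a claudin that forms ion-selective pores, known best from kidney. Its first probe gave 1.23, 1.37 and 1.43 on C4, C3 and B1, against 2.86, 2.69 and 1.98 on H2, H3 and I2. The groups were apart, with I2 the wild-type array nearest to the deficient ones. The means were 1.35 ± 0.104 in deficient cells and 2.51 ± 0.465 in wild type (SD, n = 3 each), wild type being 1.85-fold higher (log2 -0.88 ± 0.18, adjusted p = 0.0322). The second probe gave 0.328, 0.716 and 1.03 in deficient cells, against 1.76, 1.16 and 1.06 in wild type. The groups again did not overlap, but B1 and I2 nearly met and C4 was below background (-0.79 ± 0.26, adjusted p = 0.0989). The call on the first probe was kept without H3 (adjusted p = 0.0336) and lost without C4, C3, B1, H2 or I2, at an adjusted p of 0.0655 to 0.107. Normexp background correction, with the same offset, gave a difference of -0.39 (adjusted p = 0.0510). With no filter on flags or by the methods' t-test the adjusted p was 0.181 and 0.157.

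The other claudins read did not pass. Cldn6, a claudin of embryonic epithelia, gave 0.712, 1.09 and 1.03 in deficient cells and 1.68, 1.40 and 1.09 in wild type, not overlapping but with C3 and I2 almost equal (-0.56 ± 0.22, adjusted p = 0.149). Cldn14, known from the inner ear and kidney, gave 0.607, 0.530 and 0.736 in deficient cells, against 0.976, 0.702 and 1.02 in wild type. Of its deficient values 2 were below background and the highest exceeded the lowest wild-type value (-0.49 ± 0.19, adjusted p = 0.152). Cldn13, a claudin of rodents, gave 0.451, 0.795 and 0.526 in deficient cells, against 1.04, 0.671 and 0.830 in wild type, with overlap (-0.39 ± 0.21, adjusted p = 0.282).

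For Cldn3, Cldn9, Cldn15 and Cldn18 the genotypes lay close together. Cldn15, a channel-forming claudin of the gut, averaged 6.14 ± 0.266 in deficient cells and 5.93 ± 0.573 in wild type. Cldn9, known from the inner ear, averaged 4.87 ± 0.527 in deficient cells and 5.25 ± 0.422 in wild type. Cldn3, a barrier-forming claudin, averaged 1.83 ± 0.258 in deficient cells and 1.78 ± 0.130 in wild type (SD, n = 3 each). These 3 differences were within 0.11 of 0 on the log2 scale, with standard errors of 0.15 to 0.16 (adjusted p = 0.859, 0.702 and 0.916). The 2 probes of Cldn18, a claudin of stomach and lung, gave differences of opposite sign, 0.07 ± 0.16 and -0.12 ± 0.16, both smaller than their errors (adjusted p = 0.837 and 0.694).

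Cldn4, which often accompanies Cldn3, gave 0.824, 1.08 and 1.11 in deficient cells and 1.19, 0.548 and 0.838 in wild type, where H3 was below background (0.26 ± 0.26, adjusted p = 0.567). Cldn11, a claudin of myelin and Sertoli cells, gave 1.47, 0.308 and 1.07 in deficient cells, against 1.16, 1.04 and 0.778 in wild type. Its deficient arrays held both extremes, with C3 at background (-0.02 ± 0.32, adjusted p = 0.980). Cldn34c1 had the largest positive difference among the members, from 1 of its 4 probes, with 3.16, 2.07 and 2.22 in deficient cells, against 1.15, 2.48 and 1.58 in wild type. H3 overlapped the deficient values, the I2 spot was flagged irregular and the other 3 probes were at background (0.57 ± 0.28, adjusted p = 0.242). Cldn34d averaged 2.48 ± 0.578 in deficient cells and 2.37 ± 0.0814 in wild type (0.05 ± 0.19, adjusted p = 0.905).

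Tjp1 encodes ZO-1, the scaffold that links claudins to actin and is also found at contacts of non-epithelial cells. It gave 22.7, 19.1 and 19.0 in deficient cells and 11.1, 16.9 and 15.7 in wild type. All deficient arrays lay above all wild-type arrays, with H2 the lowest (0.50 ± 0.19, adjusted p = 0.146). The Grhl genes encode Grainyhead-like factors that drive epithelial junction genes. The Grhl2 probe that was read gave 0.495, 1.31 and 0.578 in deficient cells and 1.08, 1.07 and 1.03 in wild type, so C3 was the highest array of all while C4 was below background (-0.49 ± 0.30, adjusted p = 0.327). Its second probe was at background on all 6 arrays. Grhl3 averaged 1.33 ± 0.326 in deficient cells and 1.34 ± 0.0691 in wild type (-0.03 ± 0.19, adjusted p = 0.938).

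**Figure D4:**
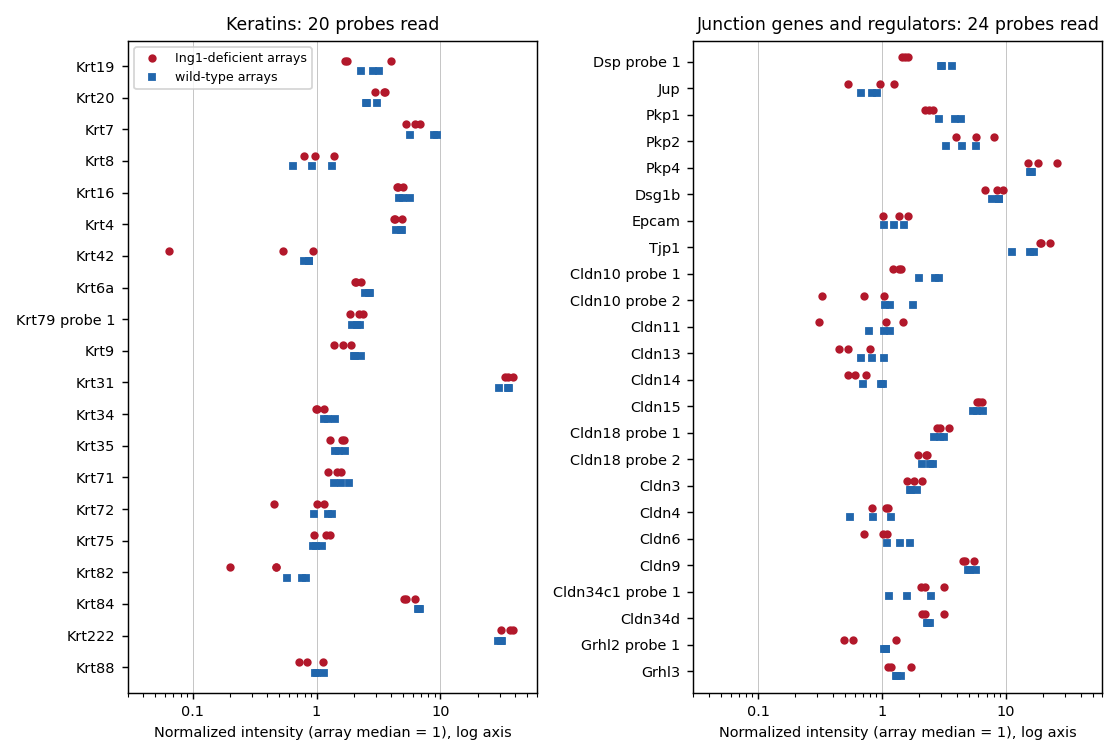
Normalized intensity on each array (horizontal axis, log scale, array median = 1) of the 20 keratin probes and the 24 junction and regulator probes that were read, deficient arrays as red circles and wild-type arrays as blue squares. The red and blue points of most probes overlapped, and of the junction probes read only Tjp1 had every red point to the right of every blue one.

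No keratin probe passed, and none reached an unadjusted p under 0.05. The simple epithelial keratins were present in both genotypes. Krt7, a type II keratin of ducts and glands, gave 6.85, 6.25 and 5.30 in deficient cells and 9.43, 5.63 and 8.88 in wild type. H2 and I2 stood above the deficient arrays and H3 lay among them (-0.35 ± 0.22, adjusted p = 0.347). Krt19, a type I keratin of simple epithelia, gave 3.95, 1.69 and 1.76 in deficient cells, against 3.19, 2.30 and 2.85 in wild type. C4 was the highest array and the other deficient arrays the lowest (-0.28 ± 0.31, adjusted p = 0.623).

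Krt8, the partner of Krt18 and the first keratin of the embryo, gave 1.39, 0.968 and 0.794 in deficient cells and 1.33, 0.912 and 0.645 in wild type, with nearly the same range in both (0.15 ± 0.29, adjusted p = 0.784). Krt20, a keratin of gut and bladder lining, gave 2.98, 3.53 and 3.56 in deficient cells, against 3.09, 2.49 and 2.56 in wild type, with C4 just under H2 (0.31 ± 0.16, adjusted p = 0.265). This was the largest positive difference among keratins.

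Of the stratified keratins that were read, Krt6a and Krt9 did not overlap between genotypes. Krt6a, a keratin of wounded epidermis and the hair follicle, gave 2.09, 2.04 and 2.26 in deficient cells and 2.66, 2.44 and 2.71 in wild type, a difference larger than the spread within either group but small (-0.29 ± 0.15, adjusted p = 0.241). Krt9, a keratin of palm and sole skin, gave 1.39, 1.89 and 1.63 in deficient cells, against 2.02, 2.03 and 2.28 in wild type (-0.38 ± 0.17, adjusted p = 0.191). Neither moved far enough to pass. Krt16, another keratin of wounded epidermis, averaged 4.67 ± 0.279 in deficient cells and 5.12 ± 0.556 in wild type (-0.13 ± 0.15, adjusted p = 0.645). Krt4, of oral and oesophageal lining, averaged 4.47 ± 0.383 in deficient cells and 4.71 ± 0.281 in wild type (-0.08 ± 0.15, adjusted p = 0.784). Both overlapped between genotypes. Krt42 had a good flag on all wild-type arrays and on C4 alone among the deficient arrays. Its values were 0.935, 0.0649 and 0.534 in deficient cells, against 0.873, 0.793 and 0.873 in wild type (-0.33 ± 0.21, adjusted p = 0.359). The floor holds this difference up, and with a floor of 0.01 it was -1.41 (adjusted p = 0.347).

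Of the hair follicle keratins, Krt34, Krt82 and Krt84 lay lower on every deficient array. Krt84 gave 5.28, 6.21 and 5.12 in deficient cells and 6.84, 6.66 and 6.59 in wild type, where the arrays were close together (-0.28 ± 0.15, adjusted p = 0.273). Krt34 gave 0.997, 1.14 and 1.0 in deficient cells, against 1.40, 1.15 and 1.24 in wild type, with C3 and H3 almost equal (-0.27 ± 0.15, adjusted p = 0.302). Krt82, a keratin of the hair cuticle, was below background on all deficient arrays and had a good flag on all wild-type arrays. Its values were 0.199, 0.471 and 0.468 in deficient cells, against 0.825, 0.573 and 0.768 in wild type. Krt82 was read through the wild-type arrays only, so the filter favoured a lower deficient value. The lower bound on the fold of wild type over deficient was 1.495 from group means, without regard to spread, and the difference did not pass (adjusted p = 0.277). Its fitted difference of -0.32 is held up by the floor under low values and lies closer to 0 than this bound.

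Krt72, a keratin of the inner root sheath, had the lowest fitted difference among keratins, with 1.0, 1.15 and 0.455 in deficient cells and 1.23, 1.33 and 0.961 in wild type. B1 alone was below background, and the groups overlapped (-0.42 ± 0.26, adjusted p = 0.345). Krt31, a keratin of the hair cortex, averaged 35.6 ± 2.86 in deficient cells and 33.5 ± 3.19 in wild type (0.09 ± 0.16, adjusted p = 0.761). Of the 15 hair follicle keratin probes 8 were read, and those of Krt33a, Krt33b and Krt86 had a good flag on no array. Which transcript the Krt31 probe reads was not tested. Krt222, a keratin-like gene, gave 30.7, 38.8 and 36.3 in deficient cells, against 31.1, 30.8 and 29.2 in wild type, with C4 inside the wild-type range (0.21 ± 0.15, adjusted p = 0.427). The remaining hair and other keratins that were read, Krt35, Krt71, Krt75 and Krt88, all overlapped between genotypes, as did Krt79 among the stratified keratins.

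Set side by side, the keratins had the lower median difference and the smaller spread. The median over the 20 keratins read was -0.21, with 14 below 0, and that over the 24 junction and regulator probes was -0.02, with 13 below 0. Over all probes read it was 0.02, with 48.1% below 0. Over the probes read with 1 symbol, from which the members were drawn, it was 0.06, with 43.3% below 0. Among probes flagged good on all 6 arrays the medians were -0.13 for 17 keratins, 0.00 for 16 junction probes and 0.03 for all. The spread within a genotype, as the median SD of log2 values, was 0.17 for keratins, 0.25 for junction genes and 0.22 for all probes read. The keratin median was -0.09 under normexp background correction, whose offset shrinks log2 differences, and -0.06 with the floor doubled, which does so for dim probes. It was -0.09 with the letter as a random block, -0.10 without B1 and 0 over all 41 probes with no filter on flags. The floor gave the 18 keratin probes never flagged good a difference of 0, so the unfiltered median cannot check the keratins that were read. The difference between keratins and junction genes was not tested.

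By array, the median deviation of the keratins from their own means was -0.03, 0.01 and -0.19 on C4, C3 and B1, against 0.15, -0.08 and 0.11 on H2, H3 and I2. B1 was the lowest array and H2 and I2 were the highest, while the wild-type array H3 lay below C4 and C3. For the junction genes the deviations were -0.23, 0.03 and -0.11 on the deficient arrays, against 0.14, -0.03 and 0.09 on the wild-type arrays, with C4 lowest and H3 again below C3. Over all probes read they lay between -0.07 and 0.06 on the 6 arrays.

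Other genes of epithelial junctions and keratinocytes were looked up by list, and their counts stand against 4.94% of all probes read that rose and 1.63% that fell. Of the 4 of 10 cornified envelope and keratinocyte genes read, Tgm1 and Sbsn fell, no gene rose, and the summed level of the 4 was 8.55 to 9.63 on the deficient arrays and 12.8 to 14.3 on the wild-type arrays. Tgm1 was read through the wild-type arrays only, so the filter favoured a lower deficient value. Without it and Lor, the genes not flagged good on all 6 arrays, Sbsn and Lce1a1 remained. Their summed level was 6.35 to 6.75 on the deficient arrays and 9.64 to 10.7 on the wild-type arrays. This sum mostly restates Sbsn, since Lce1a1 was dimmer and overlapped between genotypes (-0.20 ± 0.21, adjusted p = 0.58). Tgm1, the transglutaminase that crosslinks the envelope, gave 0.544, 0.318 and 0.504 in deficient cells, all below background. In wild type it gave 1.69, 1.23 and 1.41 (-1.33 ± 0.16, adjusted p = 0.0138). The lower bound on the fold of wild type over deficient was 2.98 from group means, without regard to spread. Sbsn, which encodes the keratinocyte protein suprabasin, gave 5.60, 5.16 and 6.07 in deficient cells, against 9.65, 8.61 and 8.57 in wild type (-0.67 ± 0.15, adjusted p = 0.0367). Flg and Tgm3 had a good flag on no array and neither had Ovol1 and Ovol2. Of the 15 further epithelial genes read, Crb3, a polarity gene of the apical membrane, rose, with 1.83, 1.77 and 1.69 in deficient cells, against 0.893, 0.893 and 1.23 in wild type (0.83 ± 0.17, adjusted p = 0.0330), and none fell. Their summed level was 93.2 to 103 on the deficient arrays and 95.9 to 139 on the wild-type arrays, and the part of epithelial cells in the Dsp and Cldn10 differences was not tested.

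Of 13 other adherens and gap junction genes read, Jam3 and Gjc1 rose and Nectin3 fell by 1 of its 4 probes. Jam3, a junctional adhesion molecule, gave 43.0, 31.1 and 31.4 in deficient cells, against 15.9, 20.8 and 20.9 in wild type (0.87 ± 0.19, adjusted p = 0.0367). The Nectin3 probe that passed had a difference of -1.43 ± 0.22 (adjusted p = 0.0195), while the others gave 0.43, 0.10 and -0.03. Ctnnb1, the beta-catenin of adherens junctions, averaged 15.9 ± 1.67 in deficient cells and 11.8 ± 1.72 in wild type and did not pass (adjusted p = 0.153).

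Of the genes that mark the mesenchymal state, Cdh11, Thy1 and Lum rose, 3 of 14, and none fell. The counts of this and the following lists likewise stand against 4.94% of all probes read that rose and 1.63% that fell. Cdh11, a cadherin of mesenchymal cells, gave 21.9, 22.8 and 26.7 in deficient cells and 7.0, 16.0 and 10.7 in wild type, with H3 the nearest to the deficient arrays (1.16 ± 0.27, adjusted p = 0.0425). Of the 8 repressors, Twist2 alone rose (1.05 ± 0.24, adjusted p = 0.0396), while Zeb1 and Snai2 did not pass. Of the 14 mesenchymal differences 11 were positive, with a median of 0.44 against 0.02 over all probes read, and the genes' median deviation from their own means was 0.16, 0.33 and 0.16 on C4, C3 and B1, against -0.31, -0.01 and -0.22 on H2, H3 and I2, without overlap. The summed level of the list, in which bright probes such as Vim weigh most, was 1082 to 1174 on the deficient arrays and 941 to 1112 on the wild-type arrays, and these ranges overlapped. No gene passed among the 4 mesothelial and the 5 endothelial genes read. Of 6 macrophage genes read C1qa, C1qb and Mrc1 rose. The summed list level was 43.4 to 143 on the deficient arrays, highest on C3, and 20.2 to 43.6 on the wild-type arrays. These ranges overlapped between C4 and H2. Lyz2, the brightest gene of the list and so the one that weighs most, did not pass (adjusted p = 0.109). Mrc1 was read through the deficient arrays only. The other 5 had a summed level of 42.1 to 139 on the deficient arrays and 19.7 to 43.2 on the wild-type arrays, again with overlap. The part of macrophage RNA in the member differences was not tested.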

How the data were processed

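Gene expression was measured in 3 Ing1-deficient and 3 wild-type cultures of mouse embryonic fibroblasts, 1 array each. Per the file headers, the authors read the scans in CodeLink Expression Analysis 4.1.0.29054, and per the labels the data were median normalized. As worked out from the values, the deposited intensity is each spot's mean less its local background median, over the median transcript probe of the array. The series value table equals the scanner tables in 217362 of 217362 values, and the scanner tables also hold the flags. The labels and file headers give no genome build, and the build named here, GRCm38.p6, is that of the RefSeq entries.

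From the intensity, log2 values were computed with a floor of 0.57, the median over arrays of the 1st percentile of good spots, which understates the differences of dim probes. The 19575 probes flagged good on all 3 arrays of a genotype were fitted together in limma 3.58.1 under R 4.3.3 (lmFit, then eBayes, two-sided tests), with Benjamini-Hochberg adjustment over all of them and a threshold of 0.05. For a genotype with no spot above background the fold is a lower bound, which sets, on each array, the dim spot or the lowest good signal, whichever is higher, against the mean of the other genotype. Precision is limited by the number of arrays.

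Symbols came from the platform annotation, in which 21615 probes had 1 symbol, 681 several and 12671 none. All 99 member probes matched RefSeq (GRCm38.p6) by gene ID under the same symbol, and the promoters are RefSeq's. The members, the gene lists and the tests were chosen with earlier results of these data known. The rule named members past the threshold, the 10 genes with the highest mean, the 5 highest and 5 lowest differences, every claudin read, a list of keratin, desmosomal, tight junction and regulator genes, and genes whose probes differed. The other keratins were named after their values were seen. From each further list up to 4 genes past the threshold were named, or some of the highest. Ctnnb1, Flg, Tgm3, Lor, Lce1a1, Lyz2 and the unread markers were named after seeing their values. There a gene was counted by its probe with the highest mean.

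The alternatives tried were background correction by normexp (offset 50), normalization by quantiles or by cyclic loess, the series value table, floors of 0.01 and 1.14, probes without any filter or only those flagged good on all 6 arrays, array weights, a robust fit with a variance trend, the letter of the culture as a random block (statmod 1.5.0), the Student test that the labels name (called the methods' t-test), and each array left out. The normexp offset of 50 units exceeds the median signal of 18.8 to 25.4 units, so it shrinks log2 differences. The covariate Eif2s3y was chosen after seeing the data, since its signal was high on B1, H2 and H3 and near background on C4, C3 and I2.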

Additional observations from a re-analysis of the deposited data

How the results depend on the processing

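With 3 arrays per genotype both calls were sensitive to the processing. Dsp kept its sign in all 19 alternatives and passed in 12, with an adjusted p of at most 0.103. Cldn10 probe 1 kept its sign in all 19 and passed in 8, with at most 0.181. These counts overstate the support, since the series value table holds the same values and repeats the main fit. The floors, the filters, the robust fit and the methods' t-test left both differences unchanged and bear on the adjusted p only. The passes include the letter as a random block, under which 65.9% of all probes passed. For Dsp the difference and adjusted p were -1.08 and 0.0926 with no filter on flags, -1.12 and 0.0605 with the Eif2s3y covariate, and -1.08 and 0.103 by the methods' t-test, and the difference was -1.14 to -0.98 with single arrays left out. For Cldn10 probe 1 they were -0.39 and 0.0510 under normexp, -0.88 and 0.0562 with a floor of 0.01, -0.88 and 0.0904 with the floor doubled, -0.88 and 0.181 with no filter, -0.79 and 0.0807 with the covariate, and -0.88 and 0.157 by the methods' t-test, and the difference was -1.05 to -0.78 with single arrays left out. The count of members past the threshold, 2, became 1 under normexp, with a floor of 0.01 and with the floor doubled, 0 with no filter, with the covariate and by the methods' t-test (7, 4 and 5 at an unadjusted p under 0.05), 8 with array weights, Krt7, Krt20, Krt42 and Krt88 among them, and 22 with the letter as a random block, whose estimated correlation was -0.886. It was 1 by the methods' t-test unadjusted with a ratio over 2 or under 0.5, and 0 to 5 with single arrays left out, 0 without C4, B1, H2 or I2, 2 without C3 and 5 without H3. Over all probes the count was 1286, and it was 576 under normexp, 737 and 749 under quantile and loess normalization, 275 and 191 with the lower and higher floor, 20 with no filter, 4721 with weights, 12901 with the block, 23 with the covariate, 7 by the methods' t-test and 5 to 2726 with single arrays left out. The share of calls that were higher, 75.2%, was 60.7% after quantile normalization. The cause was not tested. The number of members read, 44, was 33 with a good flag on all 6 arrays, 54 with one on any array, 52 against negative controls and 44 to 46 with single arrays left out. No paired analysis was possible because the genotypes share a single replicate number, 3. Dim signal limits the rest: members at background on an array have only a bound there.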
